A study of Danio rerio with 26 samples.

Results

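The respiratory chain genes described here are the nuclear genes of the 5 mitochondrial complexes that carry out oxidative phosphorylation, in the adult zebrafish telencephalon. They were chosen by symbol. A gene belonged to the set when its symbol on the array began with nduf followed by a, b, c, s or v and a digit, with sdha to sdhd, with uqcr, with cox4 to cox8, or with atp5. This gave 92 of the 19260 genes with a name, with 37 in complex I, 9 in complex II, 8 in complex III, 20 in complex IV and 18 in complex V. No measured value entered the symbol rule, and a gene with several probe sets was read from the one with the highest mean over the arrays. The 9 complex II genes include 4 sdhaf assembly factors, whose symbols begin with sdha. The genes ndufa4a, ndufa4b and ndufa4l2a were counted in complex I by symbol, although mammalian NDUFA4 is placed in complex IV. Every other member encodes a subunit, an isoform of one, or a regulator of the complex it was placed in.

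Complex I takes electrons from NADH and complex II takes them from succinate, and both pass them to ubiquinone in the inner mitochondrial membrane. Complex III hands the electrons to cytochrome c and complex IV gives them to oxygen. Complexes I, III and IV pump protons across the membrane as they work, and complex V, the ATP synthase, uses the proton gradient to make ATP. In the brain most ATP is made this way and neurons are the main users of it, whereas neural stem and progenitor cells are known to rely more on glycolysis. Several complex IV subunits exist as isoforms that differ between tissues, and in mammals COX4I2 and NDUFA4L2 are known as isoforms induced by low oxygen. The subunits encoded by mitochondrial DNA are not analysed here.

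Gene expression was measured on 26 Affymetrix arrays of total RNA from fish aged 3 to 6 months, all of the line Tg(gfap:gfp)mi2001, in which the gfap promoter of radial glia drives green fluorescent protein in lesioned and unlesioned fish alike. The medial neurogenic zone had 2 arrays without a lesion, 4 at day 2 and 3 at day 7. The dorsal subventricular zone (SVZ), the ventricular layer of radial glia and progenitors, had 3 arrays in each of these groups, and the dorsal parenchyma had 2, 3 and 3. The array titles name a lesion without its kind, and the design names a stab wound. The treatment text describes injections into the brain ventricles, and which procedure each fish had beyond this is not stated. The labels number the arrays of a group as biological replicates without saying how many fish each holds, and p-values measure the spread between these arrays, which may be partly technical. The design text names only the dorsal regions, and the medial arrays were placed by their own labels.

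The values were log2 intensities. Medians of single arrays were 3.01 to 3.21, with 3.09 for the whole table. The correlation between arrays of a group was 0.959 to 0.982, and no array was a copy of another. Marker genes were set against the labelled regions. The mean log2 intensity of 14 radial glia markers, taken for each array, was 8.06 to 8.41 in the medial zone. It was 8.37 to 8.79 in the SVZ, against 6.38 to 7.31 in the parenchyma. The same mean of 24 markers of mature neurons was 7.05 to 7.65 in the medial zone and 7.13 to 7.60 in the SVZ. In the parenchyma it was 7.66 to 8.17. The tissue of every region was a mixture of cells, and fewer cells of a type cannot be told apart from less RNA per cell. Of the 92 members, 89 had a mean above the table median. The genes cox7a1, ndufa9b and ndufs8b had means of 3.07, 2.31 and 2.66 and were not shown to be above background. No test of detection was made for any member, and ndufa1 and atp5pf, at 3.34 and 3.44, lay just above the table median.

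The first comparison was between regions, averaged over the 3 times with equal weight. Most respiratory chain genes were lower in the medial zone than in the parenchyma. A gene was called higher or lower at an adjusted p under 0.05 in limma, adjusted over all 19260 genes, and by this rule 55 members were lower and 2 were higher in the medial zone, with 35 not called. Over all genes, 13.4% were called lower and 20.6% higher. The median log2 fold change of the 92 members was -0.39, that of all genes was 0.00, and 86 members had a negative value. Members have high signals on the array, so the same shares were taken over the 2134 genes whose mean was at or above the members' lower quartile of 7.23: there 26.2% were called lower and 24.8% higher. Within single times the same comparison, chosen after seeing the data, called 28 members at day 2 and 18 at day 7, where 18% and 14% of all genes were called.

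**Figure D1:**
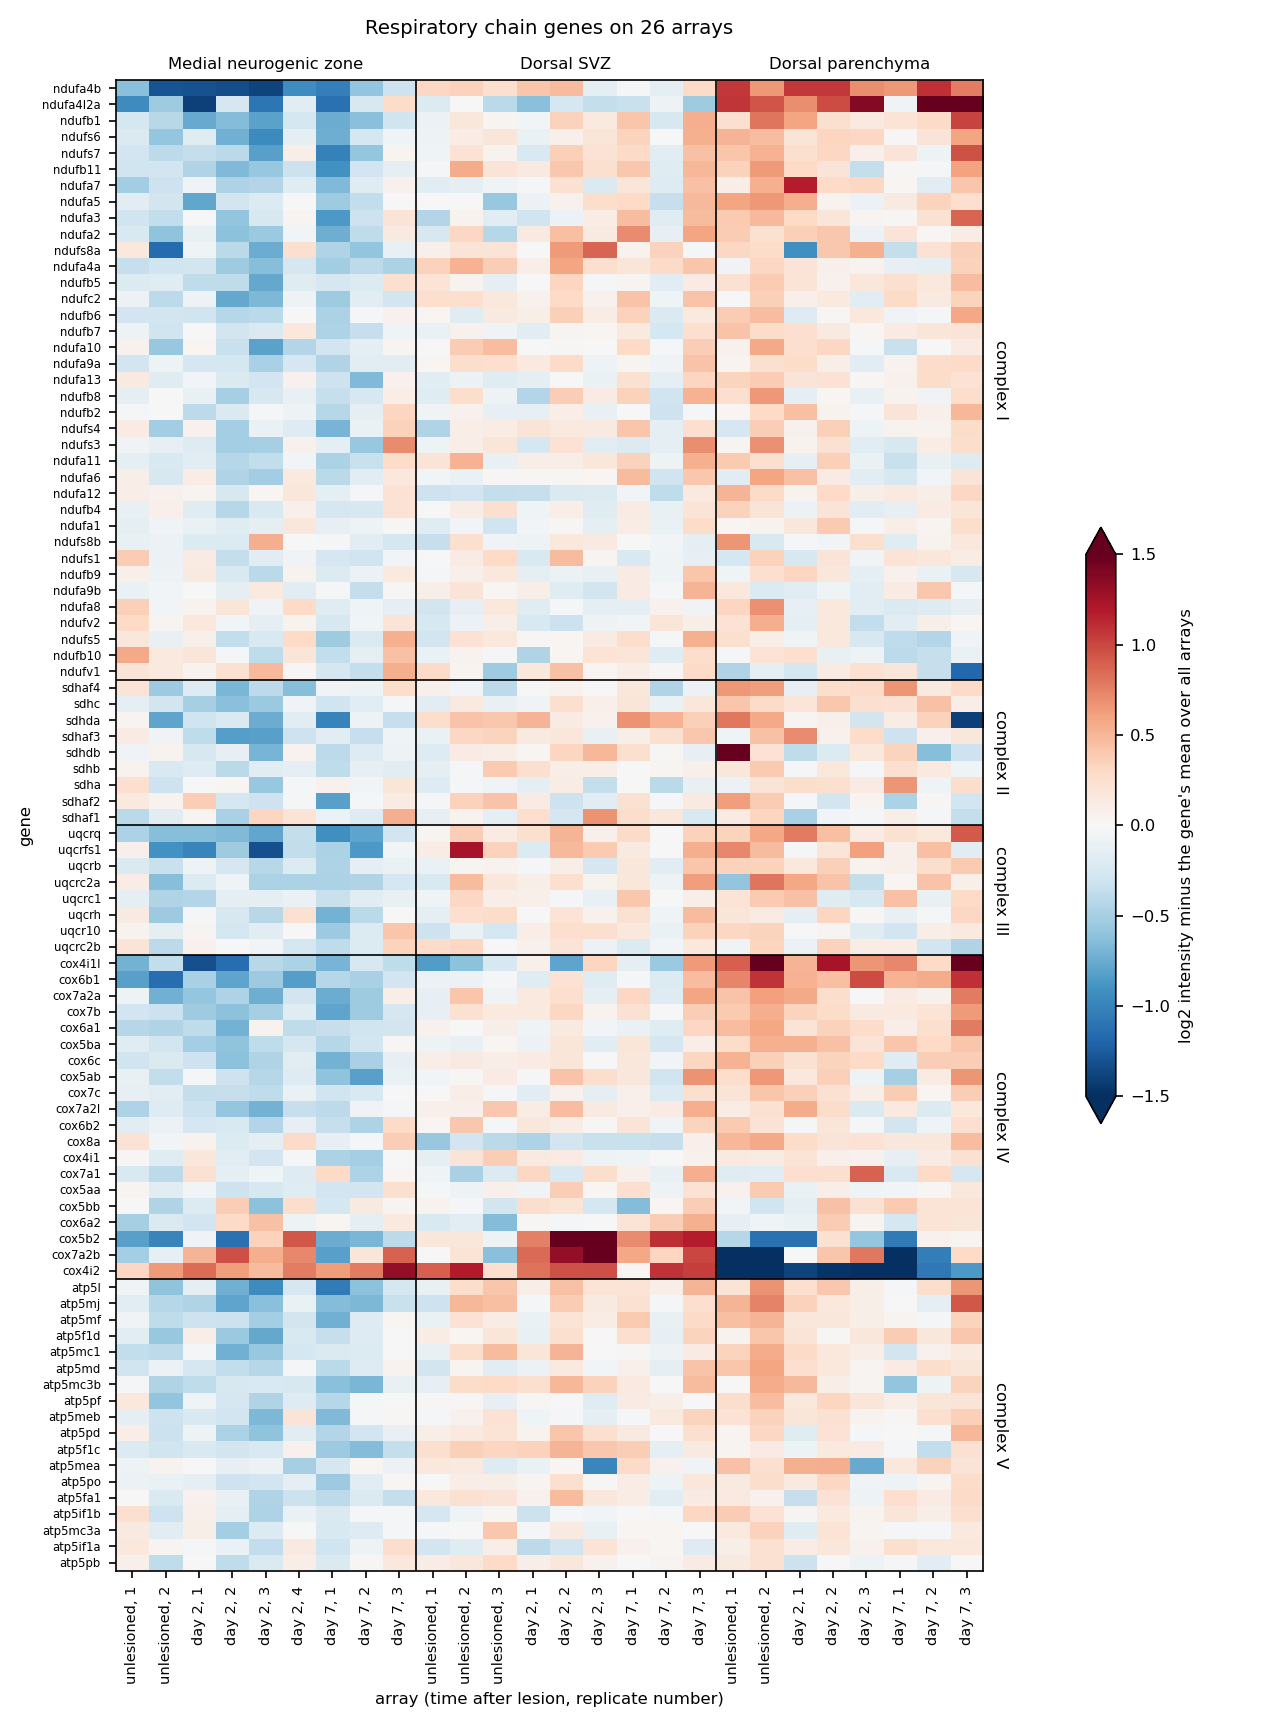
Log2 intensity of each of the 92 respiratory chain genes (rows, by complex) on each of the 26 arrays (columns, by region and time), minus the gene's mean over all arrays; colours are cut at 1.5 in both directions. Rows are mostly blue in the medial zone and mostly red in the parenchyma, with cox4i2 of complex IV in the opposite order. The row of cox7a2b is mixed in both regions, below its mean in the unlesioned parenchyma and not at day 2 there.

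Taken array by array, the medial zone was the lowest region, with some overlap with the SVZ. Each gene was centred on its mean over the 26 arrays and the median over the 92 members was taken for each array. That median was -0.42 at the lowest, -0.21 at the median and 0.01 at the highest of the 9 medial arrays, -0.07, 0.09 and 0.32 over the 9 SVZ arrays, and 0.05, 0.19 and 0.36 over the 8 parenchymal arrays. All parenchymal arrays lay above all medial arrays, and the SVZ overlapped both. At day 7 the mean of these medians was 0.14 in the SVZ and 0.13 in the parenchyma. The number of members above their own mean was 4 to 47 on the medial arrays and 29 to 80 on the SVZ arrays, against 53 to 84 on the parenchymal arrays. The medial array with the highest median, replicate 3 of day 7, had 47 members above their mean, while the other medial arrays had at most 35. In all 3 times the medial mean lay under the parenchymal mean for 75 of 92 members (81.5%), and for 27.7% of all genes.

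**Figure D2:**
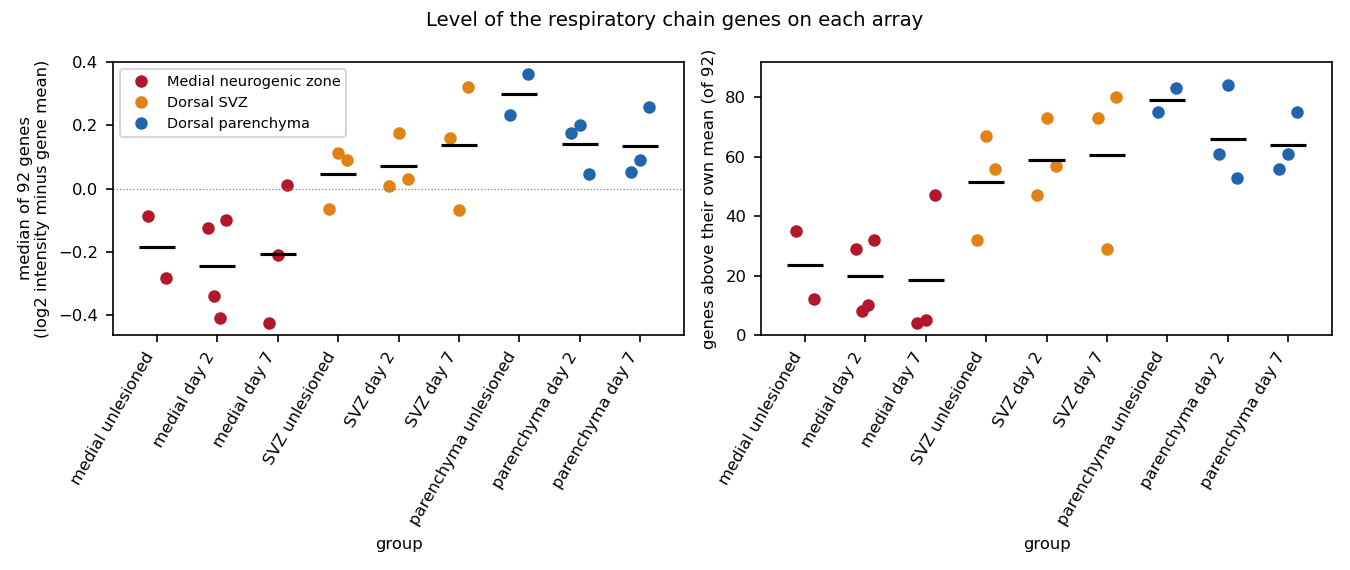
Each point is an array, in groups of region and time; the left panel gives the median over 92 genes of the log2 intensity minus the gene's mean, and the right panel the number of genes above their own mean, with group means as black bars. The medial arrays lie between -0.42 and 0.01 and the parenchymal arrays between 0.05 and 0.36.

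The markers of several cell types differed between the same regions. Relative to the parenchyma, the medial zone had 11 of 24 neuron markers lower and 3 higher (median log2 fold change -0.46), 5 of 6 erythrocyte markers lower, 6 of 18 microglia and macrophage markers lower and 1 higher, and 4 of 9 oligodendrocyte markers lower and 1 higher. Of the markers of radial glia 10 of 14 were higher (median 1.51), and of those of proliferating cells 11 of 14 were higher (median 1.14). The mean level of the 14 proliferation markers was 4.60 to 6.15 on medial arrays and 3.92 to 5.12 on SVZ arrays, against 3.67 to 4.82 on parenchymal arrays. Over all genes 13.4% were called lower and 20.6% higher. Means under the table median were found for 2 of the 6 erythrocyte, 2 of the 18 microglia, 2 of the 24 neuron and 1 of the 14 proliferation markers. The mean level of the erythrocyte markers was 3.48 to 4.27 on medial arrays, not far above the table median of 3.09. The part of these cell types in the levels of the respiratory chain genes was not tested.

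In complex I, the entry point for electrons from NADH, 18 of 37 members were lower in the medial zone than in the parenchyma and none was higher. The largest difference was in ndufa4b. Its product is a homolog of NDUFA4, which was first assigned to complex I and is placed in complex IV in mammals. The level of ndufa4b was 8.42 at the lowest, 8.78 at the median and 9.49 at the highest of the medial arrays and 9.67, 10.09 and 10.27 over the SVZ arrays, against 10.45, 10.71 and 10.90 over the parenchymal arrays. None of the 3 regions overlapped another. For this gene the medial zone was 3.55-fold lower than the parenchyma (log2 fold change -1.83, SE 0.13, adjusted p = 2.4e-10), and 2.22-fold lower than the SVZ (adjusted p = 3.6e-07). The SVZ was 1.60-fold lower than the parenchyma (adjusted p = 0.00044).

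Its paralogs had other orders. For ndufa4a the lowest, median and highest levels were 8.84, 9.08 and 9.21 in the medial zone and 9.57, 9.82 and 10.06 in the SVZ, against 9.33, 9.54 and 9.81 in the parenchyma. All medial arrays lay below all arrays of the other regions, and the SVZ and parenchyma overlapped. Its level in the medial zone was 1.68-fold lower than the SVZ (log2 fold change -0.74, SE 0.10, adjusted p = 3.3e-06) and 1.41-fold lower than the parenchyma (adjusted p = 5.0e-04), while SVZ and parenchyma were not called apart (log2 fold change 0.25, adjusted p = 0.077). For ndufa4l2a, a homolog of the mammalian NDUFA4L2, the levels were 3.23, 4.09 and 4.91 in the medial zone and 4.01, 4.30 and 4.63 in the SVZ, against 4.58, 5.65 and 6.28 in the parenchyma. The parenchyma was high except for replicate 1 of day 7, at 4.58, which lay within the range of the other regions. The medial and SVZ levels were not far above the table median of 3.09. The difference was 3.12-fold for the medial zone against the parenchyma (log2 fold change -1.64, SE 0.23, adjusted p = 7.3e-06) and 2.54-fold for the SVZ against the parenchyma (adjusted p = 0.00012), both lower, while medial zone and SVZ were not called apart (log2 fold change -0.30, adjusted p = 0.41).

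The accessory subunits of complex I, which surround the catalytic core, held most of the other calls, 14 of 27 members lower in the medial zone than in the parenchyma. The largest of these were in ndufb1 of the membrane arm (log2 fold change -0.95, SE 0.14) and in ndufs6, a zinc-binding accessory subunit (-0.76, SE 0.13). The others were ndufb11, ndufb5, ndufb6, ndufb7, ndufa2, ndufa3, ndufa5, ndufa7, ndufa9a, ndufa10, ndufa13 and ndufc2, at 1.30-fold to 1.58-fold lower. Among the 7 members of the catalytic core, the part that holds the flavin and the iron-sulfur clusters, 1 was lower. It was the iron-sulfur subunit ndufs7 (log2 fold change -0.76, adjusted p = 0.00086). The 7 include ndufs8b and the 27 include ndufa9b, both with a mean under the table median. Of all genes 13.4% were lower, and no test was made between accessory and core subunits. The flavoprotein ndufv1, which binds NADH, had the highest log2 fold change of the complex at 0.35 and was not called (adjusted p = 0.11).

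In complex II, which is also an enzyme of the citric acid cycle, 5 of 9 members were lower in the medial zone than in the parenchyma and none was higher. They were the membrane anchors sdhc and sdhda, the iron-sulfur subunit sdhb, and the assembly factors sdhaf3 and sdhaf4, with log2 fold changes from -0.59 to -0.32. For sdhc the lowest, median and highest levels were 7.95, 8.30 and 8.55 in the medial zone and 8.41, 8.66 and 8.82 in the SVZ, against 8.68, 8.84 and 9.03 in the parenchyma. The medial zone and the parenchyma did not overlap (log2 fold change -0.57, SE 0.10, adjusted p = 9.8e-05). The lowest log2 fold change of the complex was that of sdhaf4 at -0.59 and the highest was that of sdhaf1 at -0.04. The flavoprotein sdha was not called (-0.22, adjusted p = 0.18).

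In complex III 5 of 8 members were lower in the medial zone than in the parenchyma and none was higher. They were uqcrq and uqcrb, small subunits near the ubiquinone site, the Rieske iron-sulfur protein uqcrfs1, and the core proteins uqcrc1 and uqcrc2a. For uqcrq the lowest, median and highest levels were 9.86, 10.14 and 10.49 in the medial zone and 10.79, 11.02 and 11.29 in the SVZ, against 10.91, 11.17 and 11.71 in the parenchyma. No medial array reached any array of the other regions. Medial levels were 2.09-fold lower than the parenchyma (log2 fold change -1.06, SE 0.13, adjusted p = 8.7e-07) and 1.78-fold lower than the SVZ (adjusted p = 2.6e-05), while SVZ and parenchyma were not called apart (log2 fold change -0.23, adjusted p = 0.24). The probe sets of uqcrfs1 and of uqcrc1 disagreed: those used here gave log2 fold changes of -0.89 and -0.41, and further probe sets with a mean above the table median gave -0.04 for uqcrfs1 and 0.09 and -0.03 for uqcrc1. The core protein uqcrc2b had the highest value of the complex, at -0.10 (adjusted p = 0.57).

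In complex IV, the cytochrome c oxidase, 13 of 20 members were lower in the medial zone than in the parenchyma and 2 were higher. The 13 were cox4i1, cox4i1l, cox5ab, cox5ba, cox6a1, cox6b1, cox6b2, cox6c, cox7a2a, cox7b, cox7c and cox8a, together with cox7a2l, whose mammalian homolog helps join complexes into supercomplexes. For cox6b1, a subunit at the face where cytochrome c docks, the lowest, median and highest levels were 6.94, 7.55 and 7.80 in the medial zone and 7.88, 8.0 and 8.55 in the SVZ, against 8.53, 8.73 and 9.18 in the parenchyma. The medial zone did not overlap either region. It was 2.71-fold lower than the parenchyma (log2 fold change -1.44, SE 0.12, adjusted p = 2.5e-09) and 1.59-fold lower than the SVZ (adjusted p = 0.00017), and the SVZ was 1.71-fold lower than the parenchyma (adjusted p = 3.2e-05). Its paralog cox6b2 differed less, at -0.29 between medial zone and parenchyma (adjusted p = 0.047). For cox6a1 the levels were 7.65, 7.97 and 8.41 in the medial zone and 8.17, 8.36 and 8.66 in the SVZ, against 8.45, 8.66 and 9.13 in the parenchyma. The medial and parenchymal arrays were separate (log2 fold change -0.76, SE 0.11, adjusted p = 1.2e-05).

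In complex V 14 of 18 members were lower in the medial zone than in the parenchyma and none was higher. All 18 had negative values, from -0.83 for atp5l (SE 0.15, adjusted p = 0.00012), the membrane subunit g, to -0.09 for atp5pb, which was not called (adjusted p = 0.49). The calls covered the catalytic head and central stalk (atp5fa1, atp5f1c and atp5f1d), the peripheral stalk (atp5pd, atp5pf and atp5po), the rotating c ring (atp5mc1 and atp5mc3b), small membrane subunits (atp5l, atp5mj, atp5md, atp5mf and atp5meb) and atp5if1b, a homolog of the ATPase inhibitory factor. For atp5l the lowest, median and highest levels were 8.92, 9.37 and 9.91 in the medial zone and 9.86, 10.18 and 10.49 in the SVZ, against 9.94, 10.23 and 10.65 in the parenchyma. The medial arrays were lower than all parenchymal arrays and overlapped the SVZ in its lowest array. The inhibitor atp5if1a was not called (-0.16, adjusted p = 0.26). Among the calls atp5pf had a weak signal, with a mean of 3.44 beside the table median of 3.09.

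**Figure D3:**
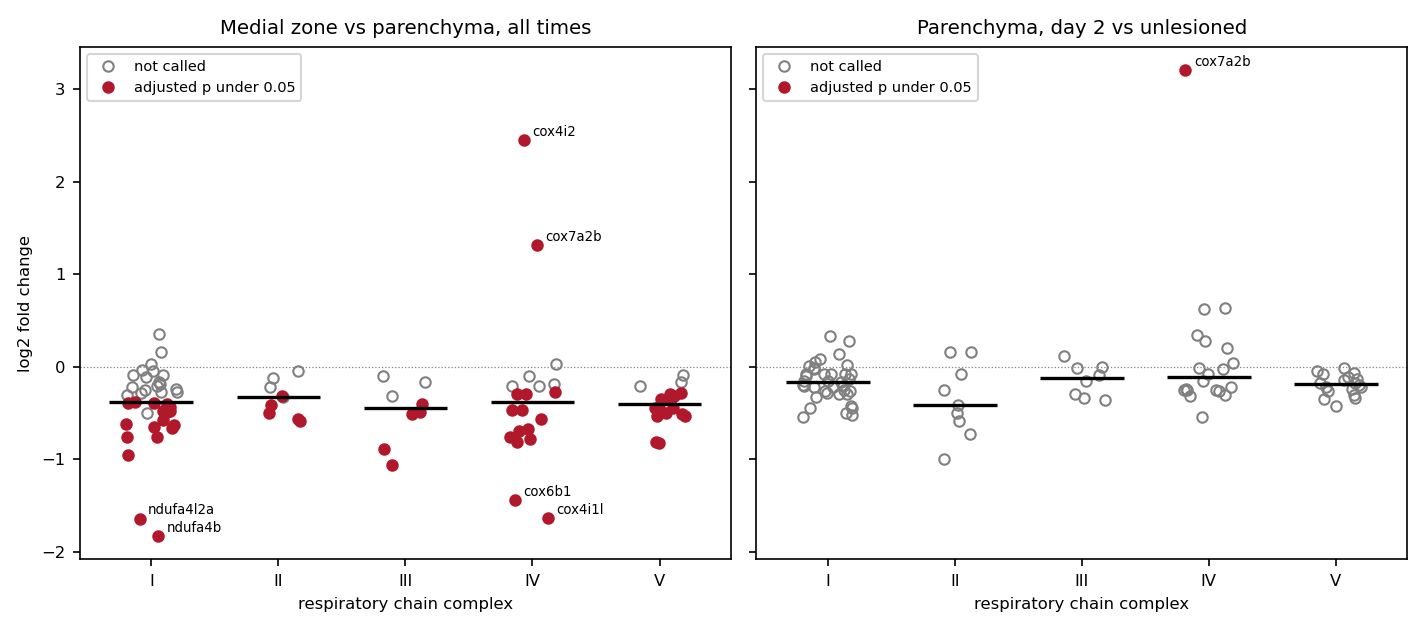
Log2 fold change of each respiratory chain gene by complex, for the medial zone against the parenchyma averaged over the times (left) and for day 2 against unlesioned in the parenchyma (right); filled points were called at an adjusted p under 0.05 and black bars are medians per complex. On the left all 5 medians lie below 0 with cox4i2 at 2.45, and on the right cox7a2b, at 3.20, is the called point.

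Complete separation between regions was counted as well. Of the 92 members 14 had every medial array below every parenchymal array, as had 2.13% of all genes: atp5l, cox4i1l, cox5ba, cox6a1, cox6b1, cox7b, cox7c, ndufa4a, ndufa4b, ndufb1, ndufs6, sdhc, uqcrb and uqcrq. The opposite held for cox4i2 alone, and for 4.77% of all genes. Every medial array lay below every SVZ array for 11 members and for 2.34% of all genes, and above every SVZ array for no member and for 2.6%. Between SVZ and parenchyma, cox5ba, cox8a and ndufa4b were lower on every SVZ array (1.17% of all genes) and cox4i2 was higher on every one (3.23%).

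The medial zone was next set against the SVZ, the other ventricular region. Respiratory chain genes were again mostly lower in the medial zone, with 43 members lower, 1 higher and 48 not called, against 8.27% of all genes lower and 11.3% higher. Among the 2134 genes at the members' levels 20.2% were lower and 14.7% were higher. The median log2 fold change of the members was -0.28, and that of all genes was 0.01. The count fell to 27 without replicate 2 of the unlesioned medial zone, and it was 17 within day 2 and 8 within day 7, beside 9.03% and 6.75% of all genes. At day 7 alone ndufa4b was not called (-0.69, adjusted p = 0.061). Cell type markers differed too. In the medial zone 12 of 14 markers of proliferating cells were higher, 9 of 24 neuron markers were lower and 5 higher, 3 of 6 erythrocyte markers were lower, 3 of 14 radial glia markers were lower and 2 higher, 2 of 9 oligodendrocyte markers were lower and 4 higher, and 1 of 18 microglia markers was lower and 1 higher. Their part in the result was not tested.

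By complex, 13 of 37 complex I members were lower in the medial zone than in the SVZ: ndufa4a, ndufa4b, ndufa2, ndufa9a, ndufa10, ndufa11, ndufb1, ndufb6, ndufb11, ndufc2, ndufs6 and the iron-sulfur subunits ndufs7 and ndufs8a. The highest value of this complex was that of ndufa12, at 0.25 (adjusted p = 0.056). In complex II 4 of 9 were lower (sdhb, sdhc, sdhda and sdhaf3), from -0.77 for sdhda (adjusted p = 0.0043), with sdha at 0.10 (adjusted p = 0.64). In complex III 6 of 8 were lower (uqcrq, uqcrb, uqcrh, uqcrfs1, uqcrc1 and uqcrc2a), from -0.90 for uqcrfs1 on the probe set used here, with uqcr10 at -0.12 (adjusted p = 0.54). Further probe sets with a mean above the table median gave -0.01 for uqcrfs1 and 0.06 and -0.10 for uqcrc1. In complex IV 10 of 20 were lower (cox5ab, cox5ba, cox5b2, cox6a1, cox6b1, cox6b2, cox6c, cox7a2a, cox7a2l and cox7b). In complex V 10 of 18 were lower (atp5l, atp5mj, atp5mf, atp5mc1, atp5mc3b, atp5pd, atp5po, atp5fa1, atp5f1c and atp5f1d), from -0.73 for atp5l, with atp5if1a at 0.10 (adjusted p = 0.58). The rotor subunit atp5f1c had the smallest adjusted p of complex V, 5.0e-05 (log2 fold change -0.60, SE 0.09).

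The member higher in the medial zone than in the SVZ was cox8a, a small complex IV subunit. Its lowest, median and highest levels were 9.27, 9.46 and 9.85 in the medial zone and 8.90, 9.14 and 9.55 in the SVZ, against 9.65, 9.72 and 10.05 in the parenchyma. The SVZ was the lowest region, and it overlapped the medial zone and not the parenchyma. The medial zone was 1.30-fold higher than the SVZ (log2 fold change 0.38, SE 0.10, adjusted p = 0.0066) and the SVZ was 1.59-fold lower than the parenchyma (log2 fold change -0.67, SE 0.10, adjusted p = 2.2e-05). Within the day 2 or the day 7 arrays alone the difference between medial zone and SVZ was 0.37 or 0.28 and was not called, and neither was the difference between SVZ and parenchyma at day 7 (-0.47).

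The SVZ differed less from the parenchyma. Of the 92 members 11 were lower in the SVZ, 3 were higher and 78 were not called, against 7.28% of all genes lower and 11.9% higher, and 13.5% and 15.3% of the 2134 genes at the members' levels. The median log2 fold change was -0.08 for the members and -0.01 for all genes. The lower members were ndufa4b, ndufa4l2a, ndufa12, sdhaf4, cox4i1l, cox5ba, cox6a1, cox6b1, cox7c, cox8a and atp5md, and the higher ones were the complex IV isoforms cox4i2, cox5b2 and cox7a2b. With each array's median subtracted, the split was 9 lower and 5 higher, and after quantile normalization of the whole table again it was 21 lower and 3 higher. Within single times 5 members were called at day 2 and 6 at day 7, beside 6.98% and 8.42% of all genes. The lowest and highest values by complex were -1.34 (ndufa4l2a) and 0.33 (ndufv1, adjusted p = 0.18) in complex I, -0.46 (sdhaf4, adjusted p = 0.011) and 0.27 (sdhda, adjusted p = 0.36) in complex II, and -0.23 (uqcrb, adjusted p = 0.10) and 0.06 (uqcrc2b, adjusted p = 0.79) in complex III. In complex V they were -0.30 (atp5mea, adjusted p = 0.22) and 0.25 (atp5f1c, adjusted p = 0.07). Beside this, 11 of 14 radial glia markers were higher and 1 lower in the SVZ, 6 of 14 proliferation markers were higher, 11 of 24 neuron markers were lower, 5 of 9 oligodendrocyte markers were lower and 1 higher, and 3 of 18 microglia markers and 1 of 6 erythrocyte markers were lower. Their part in the result was not tested.

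Averaged over the times, the members called higher in a ventricular region than in the parenchyma were the complex IV isoforms cox4i2, cox7a2b and cox5b2. Other isoforms of the complex, such as cox4i1l and cox7a2a, were lower in the medial zone than in the parenchyma. The cox4 subunit is the regulatory subunit of the complex, and its isoforms had the widest range of regional log2 fold changes of any family, 4.08 between medial zone and parenchyma. The range ran from cox4i1l, which had weak signals in the medial zone, to cox4i2. The level of cox4i2, a homolog of the mammalian isoform of lung and low oxygen, was 8.30 at the lowest, 8.62 at the median and 9.30 at the highest of the medial arrays and 8.01, 8.93 and 9.18 over the SVZ arrays, against 5.54, 6.28 and 7.12 over the parenchymal arrays. No array of the ventricular regions overlapped the parenchyma. The medial zone was 5.45-fold higher than the parenchyma (log2 fold change 2.45, SE 0.20, adjusted p = 1.6e-09), the SVZ was 5.90-fold higher (2.56, SE 0.20, adjusted p = 7.1e-10), and medial zone and SVZ were not called apart (-0.12, SE 0.19, adjusted p = 0.75).

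The other cox4 genes did not share this. The level of cox4i1 was 10.02, 10.36 and 10.70 over the medial arrays and 10.39, 10.59 and 10.91 over the SVZ arrays, against 10.41, 10.65 and 10.76 over the parenchymal arrays. The 3 regions overlapped, and the log2 fold change of the medial zone against the parenchyma was -0.27 (SE 0.10, adjusted p = 0.043). The level of cox4i1l was 3.38, 4.22 and 4.46 in the medial zone and 3.86, 4.46 and 5.33 in the SVZ, against 4.99, 5.50 and 6.49 in the parenchyma. The medial and parenchymal arrays were separate and the SVZ lay across both. Its medial level was 3.10-fold lower than the parenchyma (log2 fold change -1.63, SE 0.23, adjusted p = 4.7e-06) and the SVZ was 2.40-fold lower (adjusted p = 0.00016). The medial levels of cox4i1l were not far above the table median of 3.09.

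**Figure D4:**
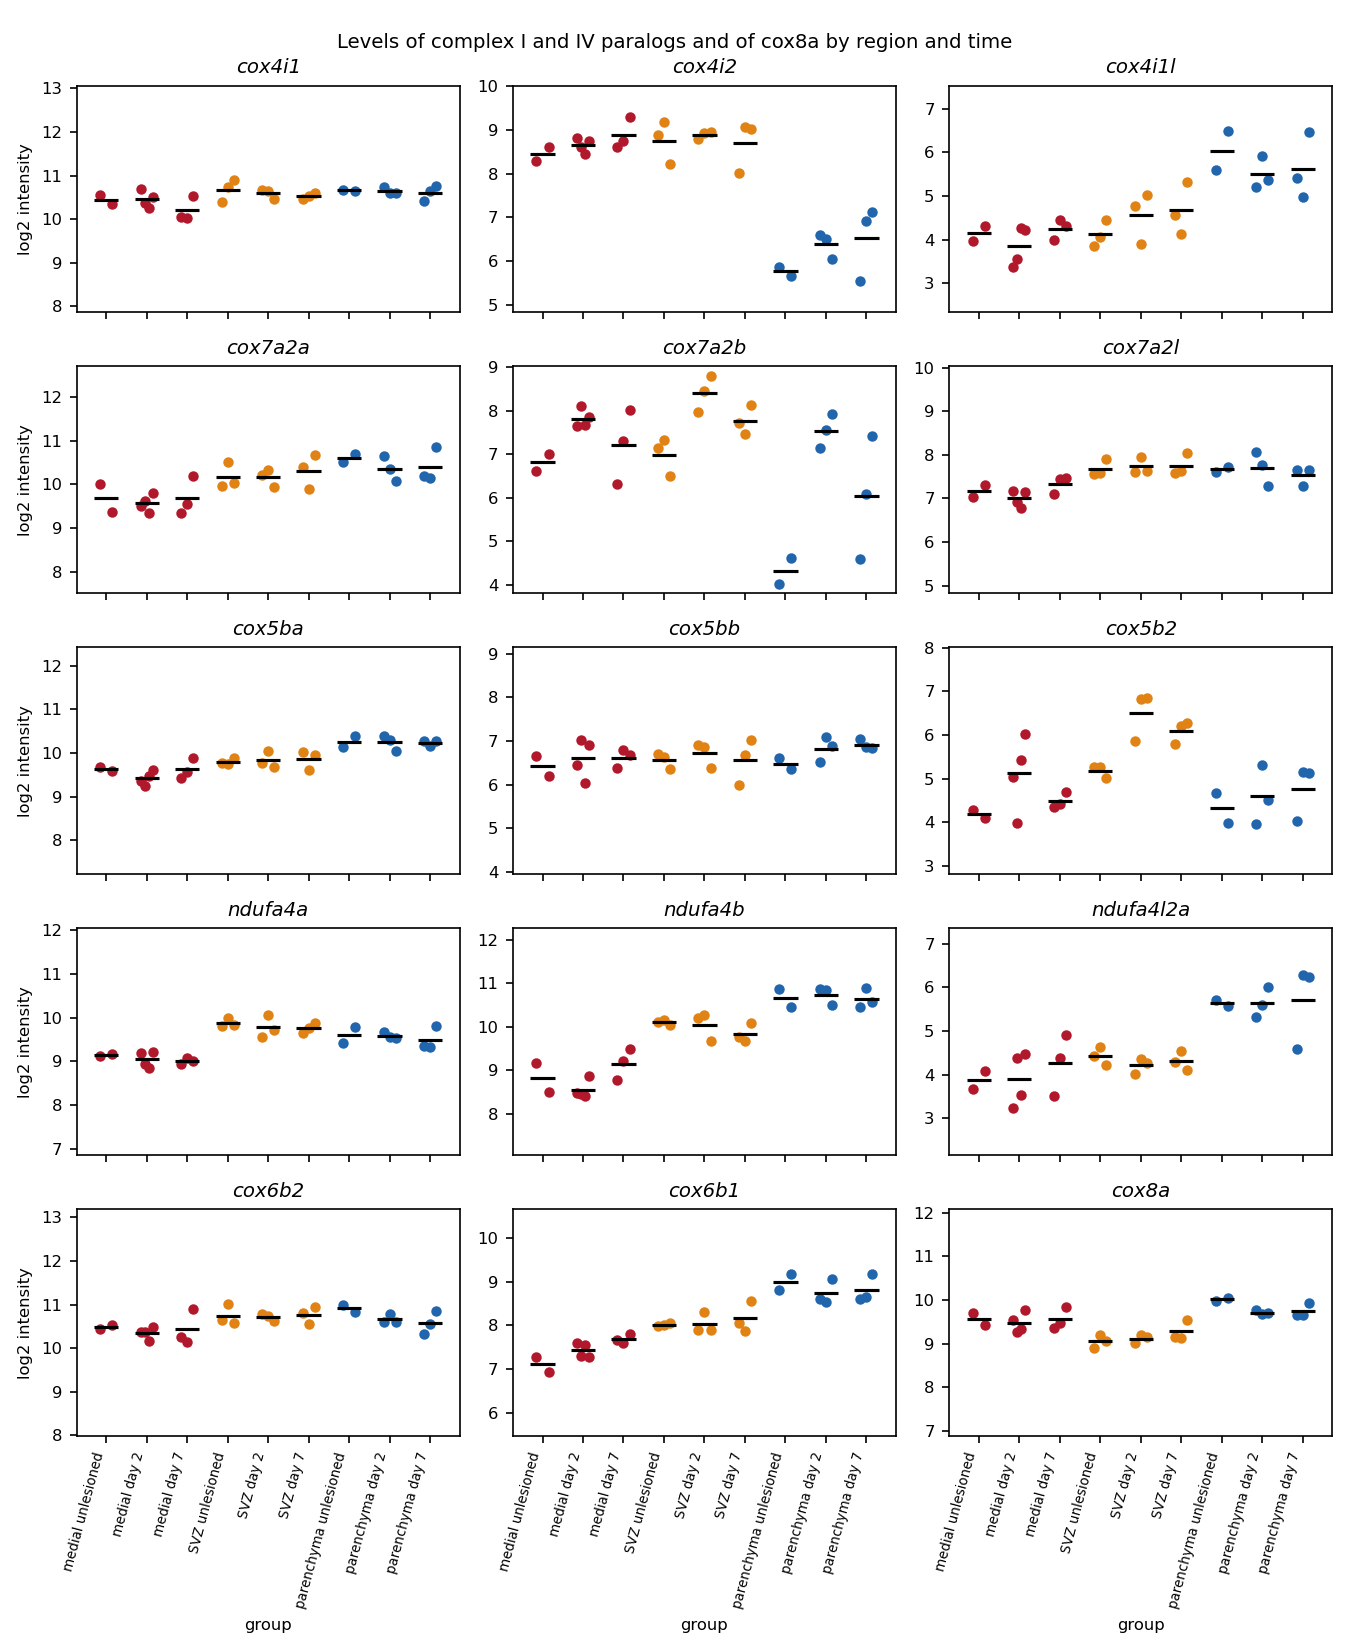
Log2 intensity of complex I and IV paralogs and of cox8a, with each point an array, groups of region and time along the axis and group means as black bars; every panel spans the same range of log2 units. The gene cox4i2 is at 8.01 or above in both ventricular regions and at 7.12 or below in the parenchyma, and cox7a2b lies at 4.03 and 4.63 in the unlesioned parenchyma and above 7 there at day 2.

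In the cox7a family the paralogs cox7a2a and cox7a2b ran in opposite directions. The level of cox7a2a was 9.34 at the lowest and 10.18 at the highest of the medial arrays and 9.88 and 10.67 in the SVZ, against 10.07 and 10.86 in the parenchyma, and the medial zone was 1.75-fold lower than the parenchyma (log2 fold change -0.81, SE 0.15, adjusted p = 0.00027). The level of cox7a2b was 6.32, 7.64 and 8.09 over the medial arrays and 6.50, 7.71 and 8.79 over the SVZ arrays, against 4.03, 6.61 and 7.92 over the parenchymal arrays. The regions overlapped, with all parenchymal arrays of day 2 and replicate 3 of day 7 within the range of the medial arrays. Averaged over the times the medial zone was 2.49-fold higher than the parenchyma (log2 fold change 1.31, SE 0.29, adjusted p = 0.0010) and the SVZ was 3.37-fold higher (1.75, SE 0.28, adjusted p = 5.7e-05). Within day 2 alone the log2 fold changes were 0.28 for the medial zone and 0.87 for the SVZ against the parenchyma, and neither was called. The 1.18 of the medial zone at day 7 was not called either. The member cox7a2l was lower in the medial zone (-0.46 against the parenchyma, adjusted p = 0.0043), and cox7a1, whose mammalian homolog is the muscle isoform, was under the table median on average (-0.21, adjusted p = 0.26).

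In the cox5b family, which encodes the zinc-binding subunit, cox5b2 was high in the SVZ. Its level was 3.97, 4.41 and 6.02 over the medial arrays and 5.01, 5.85 and 6.85 over the SVZ arrays, against 3.97, 4.59 and 5.32 over the parenchymal arrays. The SVZ lay mostly above the others, with overlap. The SVZ was 2.57-fold higher than the parenchyma (log2 fold change 1.36, SE 0.24, adjusted p = 0.00018) and the medial zone was 2.51-fold lower than the SVZ (-1.33, SE 0.24, adjusted p = 2.0e-04). A further probe set of cox5b2, with a mean of 3.05 under the table median, gave -0.01 and -0.09. The paralog cox5ba was lower in the medial zone than in the parenchyma (-0.69, SE 0.10, adjusted p = 6.6e-06) and than in the SVZ (-0.28, adjusted p = 0.04). A further probe set of cox5ba, with a mean of 4.36, gave -0.29 and -0.0018. The paralog cox5bb was not called, at -0.19 for the medial zone against the parenchyma (adjusted p = 0.36) and -0.12 for the SVZ against the parenchyma (adjusted p = 0.62).

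The remaining families with more than 1 member differed by less. Their regional log2 fold changes spanned at most 0.65 between cox6a1 and cox6a2, 0.58 between ndufs8a and ndufs8b, 0.50 between sdhda and sdhdb, and 0.41 among atp5mc1, atp5mc3a and atp5mc3b. The spans were 0.39 for uqcrc2a and uqcrc2b, 0.36 for cox5aa and cox5ab, 0.31 for ndufa9a and ndufa9b, 0.26 for atp5mea and atp5meb and 0.15 for atp5if1a and atp5if1b. Those of ndufa9b and ndufs8b rest on probe sets under the table median.

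The same regional order was looked for without any lesion, where groups had 2 or 3 arrays. In groups this small, how many of all genes had separate arrays was not counted. In unlesioned tissue 15 members were lower and 2 higher in the medial zone than in the parenchyma, against 3.26% of all genes lower and 7.28% higher, with a median of -0.45 and 87 members negative. Besides ndufa4b, cox6b1, cox6a1, cox4i1l, cox4i2 and cox7a2b, the calls were ndufa4l2a, ndufs6, sdhaf4, uqcrq, uqcrb, cox5ba, cox6c, cox7b, atp5mc1, atp5md and atp5mf. The level of cox4i2 was 8.30 and 8.62 in the medial zone and 8.88, 9.18 and 8.22 in the SVZ, against 5.87 and 5.65 in the parenchyma. That of cox7a2b was 6.62 and 7.01 in the medial zone and 7.13, 7.33 and 6.50 in the SVZ, against 4.03 and 4.63 in the parenchyma. For both genes the unlesioned parenchyma was below every array of the other regions, and the medial zone was 6.47-fold and 5.60-fold higher than the parenchyma (adjusted p = 6.9e-05 for cox4i2 and 0.0057 for cox7a2b). The 17 calls depended on the fit. There were 9 with array weights, 10 with array medians subtracted, 6 with only these groups in the fit, and 6 to 11 when any of the 4 arrays was left out, and on the other side 22 after quantile normalization again and 23 without the 2 arrays of lowest weight. The call of cox7a2b was lost without replicate 1 of the parenchyma or replicate 2 of the medial zone, at 2.18 or 2.29.

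Against the SVZ, the unlesioned medial zone had 3 members lower and none higher, where 1.79% of all genes were lower and 2.37% higher. The level of ndufa4b was 9.17 and 8.50 in the medial zone, against 10.11, 10.15 and 10.04 in the SVZ. That of ndufa4a was 9.12 and 9.18 in the medial zone, against 9.82, 9.996 and 9.84 in the SVZ. That of cox6b1 was 7.28 and 6.94 in the medial zone, against 7.99, 8.0 and 8.06 in the SVZ. None of these 3 called genes overlapped, and the share of all genes so separated was not counted. The adjusted p was 0.0021 for ndufa4b, 0.019 for ndufa4a and 0.016 for cox6b1, and none was called without replicate 2 of the unlesioned medial zone. The call of ndufa4a was also lost without replicate 1 of that zone or replicate 2 of the SVZ, and that of cox6b1 without replicate 3 of the SVZ. With no call on the higher side, the members past an unadjusted p of 0.05 in either direction were 16 of 92 (17.4%), beside 14.3% of all genes. The highest member was cox8a, at 0.51 (adjusted p = 0.16).

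The unlesioned SVZ had 6 members lower and 2 higher than the unlesioned parenchyma, where 1.81% of all genes were lower and 4.89% higher. The higher ones were cox4i2 (7.98-fold, adjusted p = 5.9e-06) and cox7a2b (6.32-fold, adjusted p = 0.002). The lower ones were cox8a, cox4i1l, cox6b1, ndufa12, ndufa8 and atp5md. The level of cox8a was 8.90, 9.19 and 9.07 in the SVZ, against 9.97 and 10.05 in the parenchyma, 1.94-fold lower (SE 0.19 on the log2 scale, adjusted p = 0.0018). The levels of cox4i1l were 3.86, 4.07 and 4.46 in the SVZ, against 5.59 and 6.49 in the parenchyma (3.76-fold lower, adjusted p = 0.0044). Both genes were lower on every SVZ array, and the calls of cox4i1l and cox6b1 were lost without replicate 2 of the unlesioned parenchyma, where 5 members were called. After quantile normalization again 13 were called.

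The second question was whether the lesion changed the respiratory chain. By day 2 the largest change of any member was a rise of cox7a2b in the parenchyma, and it was the 1 member called, against 1.7% of all genes higher and 0.332% lower. In the parenchyma its level was 4.03 and 4.63 without a lesion, 7.13, 7.54 and 7.92 at day 2, and 4.59, 6.09 and 7.42 at day 7. All day 2 arrays were above the unlesioned ones, while the day 7 arrays were spread over nearly the whole range. The rise at day 2 was 9.22-fold (log2 fold change 3.20, SE 0.52, adjusted p = 0.00072). At day 7 the log2 fold change was 1.70 against unlesioned (SE 0.52, adjusted p = 0.21) and -1.50 against day 2 (SE 0.47, adjusted p = 0.16). Of 18 microglia and macrophage markers 14 rose in the parenchyma at day 2 (median log2 fold change 2.59), where their mean level was 6.53, 6.91 and 7.59, against 4.58 and 4.76 without a lesion. Their part in the rise of cox7a2b was not tested.

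In the ventricular regions cox7a2b had smaller values that were not called. In the SVZ its level was 7.13, 7.33 and 6.50 without a lesion, 7.97, 8.45 and 8.79 at day 2, and 7.71, 7.46 and 8.13 at day 7. In the medial zone it was 6.62 and 7.01 without a lesion, 7.64, 8.09, 7.68 and 7.86 at day 2, and 6.32, 7.31 and 8.01 at day 7. Every day 2 array lay above every unlesioned array in each region. The log2 fold change at day 2 was 1.42 in the SVZ (SE 0.47, adjusted p = 0.38) and 1.00 in the medial zone (SE 0.50, adjusted p = 0.61). The difference of the day 2 effect from that of the parenchyma was -1.79 for the SVZ (SE 0.70, adjusted p = 0.60) and -2.20 for the medial zone (SE 0.72, adjusted p = 0.38), and neither passed the test.

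Averaged over the 3 regions, cox7a2b was 3.67-fold higher at day 2 than without a lesion (log2 fold change 1.88, SE 0.29, adjusted p = 0.00022), again the 1 member called, against 2.73% of all genes higher and 1.17% lower. The next was cox5b2, at 0.85 on the log2 scale (SE 0.25, adjusted p = 0.055), which was called with array weights, after dropping the third of genes with the weakest signal, and with a trended and robust prior. Leaving out replicate 1 of the parenchyma, replicate 1 of the SVZ or replicate 2 of the medial zone at day 2 had the same effect. In the SVZ the level of cox5b2 was 5.26, 5.27 and 5.01 without a lesion, 5.85, 6.83 and 6.85 at day 2, and 5.81, 6.20 and 6.28 at day 7. The lesioned arrays of the SVZ were all above its unlesioned arrays, with 1.33 on the log2 scale at day 2 (SE 0.40, adjusted p = 0.29). In the medial zone cox5b2 was at 4.275 and 4.098 without a lesion, 5.05, 3.97, 5.43 and 6.02 at day 2, and 4.35, 4.41 and 4.70 at day 7. There the day 2 arrays ran both below and above the unlesioned ones (0.93, SE 0.43, adjusted p = 0.56). In the parenchyma it was at 4.67 and 3.97 without a lesion, 3.97, 5.32 and 4.52 at day 2, and 4.03, 5.16 and 5.14 at day 7, with the groups overlapping.

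No other member was called after the lesion, and no member was called at day 7 or between day 7 and day 2 in any region, by limma. Past an unadjusted p of 0.05 there were 8 members in the parenchyma, 3 in the SVZ and 3 in the medial zone at day 2 (8.7%, 3.26% and 3.26% of members), beside 12.5%, 6.8% and 8.39% of all genes. Of all genes 0.27% were called in the SVZ and 0.493% in the medial zone at day 2. At day 7 there were 9, 3 and 1 such members (9.78%, 3.26% and 1.09%), beside 10.8%, 4.45% and 4.07% of all genes past the same threshold. After adjustment the parenchyma had 0.125% of all genes called at day 7, and the SVZ and the medial zone had none. Between day 7 and day 2 there were 3, 0 and 5 such members (3.26%, 0% and 5.43%), beside 10.2%, 4.54% and 8.75% of all genes, and 1.15%, 0.0519% and 0.421% of all genes were called after adjustment. In the mean of the regions at day 7 there were 6 (6.52%), beside 8.68% of all genes, of which 0.0935% were called after adjustment. None of these shares of members was above that of all genes. Single arrays mattered: without replicate 1 of day 7 in the parenchyma cox7a2b was called at day 7 there and in the mean of the regions, without replicate 3 of day 7 it was called between day 7 and day 2, and without replicate 2 of the unlesioned parenchyma sdhdb was called at day 7. On simulated data with the groups of the parenchymal day 2 comparison, 27.5% of genes with a log2 change of 1 and 0% of those with 0.5 were recovered. For the medial zone against the parenchyma over all times the recovered shares were 87% and 16%. The changed genes were a small part of the 19260, drawn from those with a mean above the median and not from the members. In the data 20.6% of all genes were called higher and 13.4% lower in the medial zone against the parenchyma. The adjustment of p over all genes is stricter where few genes change, as in the simulation. In the parenchyma the median residual SD was 0.21 for the members and 0.32 for all genes. The recovered shares therefore do not tell how many changes of members were missed.

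The remaining day 2 values were small. In the parenchyma 75 of 92 members had a negative log2 fold change, with a median of -0.18, while the median of all genes was 0.00. Array by array, the median of the members relative to their means was 0.23 and 0.36 without a lesion, 0.18, 0.20 and 0.05 at day 2, and 0.05, 0.09 and 0.26 at day 7. All day 2 arrays were below both unlesioned arrays, by less than the distance between some arrays of 1 group, and the SD of such array medians within groups was 0.142. In the SVZ 49 members were positive and 43 negative (median 0.02), and in the medial zone 31 were positive and 61 negative (median -0.09). Leaving out single arrays gave medians of -0.05 to 0.07 in the SVZ and -0.18 to 0.03 in the medial zone, both across 0, and -0.22 to -0.12 in the parenchyma.

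By complex, the lowest and highest values at day 2 in the parenchyma were -0.54 (ndufa8) and 0.33 (ndufv1) in complex I, -0.99 (sdhdb) and 0.16 (sdha) in complex II, and -0.36 (uqcr10) and 0.11 (uqcrc2a) in complex III. In complex IV the lowest was -0.54 (cox4i1l), and in complex V all 18 members were negative, from -0.43 (atp5mj) to -0.02 (atp5f1c). Among these sdhdb, an anchor of complex II, had the smallest adjusted p at 0.099 (SE 0.30). Its level was 8.24 and 6.96 without a lesion, 6.37, 6.55 and 6.90 at day 2, and 7.08, 6.10 and 6.44 at day 7. The unlesioned array at 8.24 stood apart, the other lay just above the day 2 arrays, and without replicate 2, the array at 6.96, the gene was called.

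In the SVZ at day 2 the extremes were -0.27 (ndufa10) and 0.36 (ndufa2) in complex I, -0.36 (sdhaf2) and 0.30 (sdhaf1) in complex II, -0.34 (uqcrfs1) and 0.43 (uqcr10) in complex III, and -0.38 (atp5mea) and 0.21 (atp5mc3b) in complex V. In complex IV the lowest was cox7c at -0.11. In the medial zone they were -0.36 (ndufb10) and 0.25 (ndufs8a), -0.62 (sdhaf3) and 0.31 (sdhaf1), -0.39 (uqcrfs1) and 0.09 (uqcrc1), and -0.22 (atp5pd) and 0.09 (atp5f1c), with cox4i1l the lowest of complex IV at -0.30. None of these was called. The difference of the day 2 effect was also taken gene by gene. Its median over the members was 0.19 for the SVZ minus the parenchyma and 0.11 for the medial zone minus the parenchyma, and no member was called in either, where 0.0519% and 0.0104% of all genes were called. Past an unadjusted p of 0.05 there were 6 and 3 members (6.52% and 3.26%), beside 6.8% and 7.3% of all genes. Between medial zone and SVZ there were 0 members past it, beside 3.15% of all genes, and no gene was called. Without replicate 2 of the unlesioned parenchyma sdhdb was called in the difference between SVZ and parenchyma.

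Other genes of mitochondria and energy metabolism were counted in the same fits, by list. Between medial zone and parenchyma 13.4% of all genes were lower and 20.6% higher, and each count stands beside these shares. Of 44 assembly factors, which build the complexes without staying in them, 5 were lower and 7 higher in the medial zone than in the parenchyma (median -0.01). The complex I assembly factors tmem126a and acad9 were higher (log2 fold changes 0.63 and 0.48, adjusted p = 0.0012 and 0.0039) and ndufaf8 was lower (-0.79, adjusted p = 0.0029). Of 23 genes of the citric acid cycle and pyruvate entry 5 were lower and 3 higher (median -0.16). The dihydrolipoamide dehydrogenase dldh, shared by several dehydrogenase complexes, was 3.27-fold higher (adjusted p = 4.6e-10), pyruvate carboxylase pcxa was 1.72-fold higher (adjusted p = 1.8e-05), and pdhx of the pyruvate dehydrogenase complex was 1.51-fold lower (adjusted p = 0.00068). Of 15 carriers and pores 1 was lower and 2 were higher, among them the uncoupling protein gene ucp2 (2.22-fold higher, adjusted p = 0.0014).

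Regulators of mitochondrial biogenesis and maintenance of mitochondrial DNA had 6 of 19 genes higher in the medial zone than in the parenchyma and none lower (median 0.12). The shares of all genes were 20.6% higher and 13.4% lower. The coactivator gene pprc1 was 1.81-fold higher (log2 fold change 0.85, SE 0.13, adjusted p = 2.4e-05), tfam, which packages and transcribes mitochondrial DNA, was also 1.81-fold higher (adjusted p = 0.00014), and gabpb2b, a subunit of nuclear respiratory factor 2, was 1.38-fold higher (adjusted p = 0.0016). Among genes of mitochondrial dynamics and mitophagy 4 of 17 were lower, including the kinase gene pink1 (1.53-fold, adjusted p = 0.002) and the fission adaptor mffb (1.27-fold, adjusted p = 0.022), and 3 were higher, with the mitophagy receptor bnip3la at 1.69-fold (adjusted p = 4.3e-06). Mitochondrial antioxidant genes had 2 of 8 lower (txn2 and gpx4b) and 1 higher (gpx4a). Of 30 glycolysis genes 8 were lower and 4 higher (median -0.13), and the 3 with the smallest adjusted p were higher: eno1b (3.55-fold), pfklb (2.40-fold) and tpi1a (2.19-fold).

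Mitochondrial ribosomal proteins, which make the subunits encoded in the organelle, had 8 of 68 lower and 2 higher in the medial zone than in the parenchyma (median -0.01), and import components had 3 of 24 lower and 1 higher (median -0.04). The calls of smallest adjusted p were mrpl20 (-0.70, adjusted p = 0.001) and mrpl53 (-1.07, adjusted p = 0.0014), and tomm7 (-0.68, adjusted p = 0.0011) and tomm5 (-0.63, adjusted p = 0.0031) of the outer membrane translocase. Among gene groups outside mitochondria, cytosolic ribosomal proteins had 9 of 70 lower and 16 higher (median 0.08), and proteasome subunits had 1 of 45 lower and 20 higher (median 0.31). The share of all genes called higher was 20.6%. The share called lower was 59.8% for the respiratory chain genes, 13.4% for all genes and 26.2% for the genes at the members' levels. No test between lists was made. The lists also differed in signal. Their mean level per array was 5.17 to 5.52 for assembly factors and 9.59 to 10.14 for cytosolic ribosomal proteins, beside a median of 8.39 over the members.

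**Figure D5:**
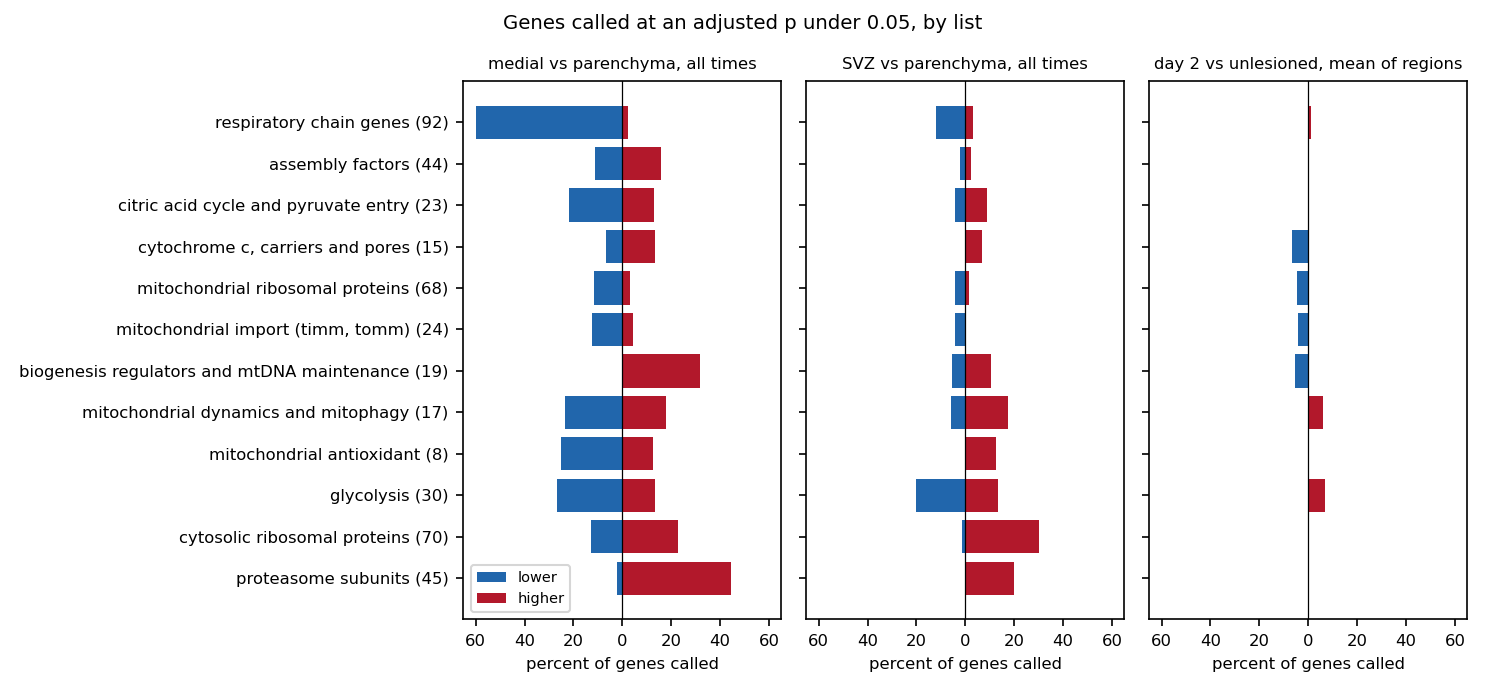
Percent of the genes of each list called higher (right, red) or lower (left, blue) at an adjusted p under 0.05, with the number of genes in parentheses, for 3 comparisons. Of the respiratory chain genes 55 of 92 were lower in the medial zone than in the parenchyma, and 1 of 92 was higher at day 2 in the mean of the regions. The matching shares of all genes were 13.4% and 2.73%.

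After the lesion these lists had few calls, as had all genes. Of all genes 1.7% were called higher and 0.332% lower at day 2 in the parenchyma. At day 2 in the parenchyma none of the 44 assembly factors, 23 citric acid cycle genes, 15 carriers, 8 antioxidant genes or 24 import components was called. The gene mterf4 of the mitochondrial transcription termination factor family (2.28-fold higher, adjusted p = 0.0012), chchd3a of the inner membrane scaffold (2.32-fold higher, adjusted p = 0.017) and the glycolytic aldolase aldoab (3.28-fold higher, adjusted p = 0.00091) rose, and the mitochondrial ribosomal genes mrps2 and mrps33 fell (log2 fold changes -0.83 and -0.87). In the SVZ and the medial zone no gene of these lists was called at day 2, where 0.27% and 0.493% of all genes were called.

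In the mean of the 3 regions at day 2, 3 genes of these lists rose and 6 fell, beside 2.73% of all genes higher and 1.17% lower. The glycolytic genes eno3 (1.63-fold, adjusted p = 0.002) and aldoab (1.75-fold, adjusted p = 0.003) and the scaffold gene chchd3a (1.56-fold, adjusted p = 0.015) were higher than without a lesion. The mitochondrial ribosomal genes mrpl34, mrps33 and mrps2 (1.60-fold, 1.41-fold and 1.29-fold), the import gene timm17a (1.34-fold), the uncoupling protein gene ucp1 (1.67-fold) and ppargc1b, a coactivator of mitochondrial biogenesis (1.61-fold), were lower, with adjusted p from 0.0097 to 0.041.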

How the data were processed

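Per the submitters' processing notes, the authors made the deposited log2 intensity values with RMA in version 1.2 of Affymetrix Expression Console; the genome build is not given in the sources used here. Of 75212 probe sets, 20806 had 1 symbol in the platform annotation, 855 several and 53551 none. The probe set with the highest mean stood for a gene. All 92 members had a current gene identifier; 14 had further probe sets, and 3 probe sets with several symbols were left out.

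The fit used limma 3.58.1 (R 4.3.3) with a separate mean for each of the 9 groups over 26 arrays, and p-values were adjusted by Benjamini-Hochberg over 19260 genes in each of 20 comparisons. Every adjusted p given is limma's. The fit was tested on simulated data. The number of arrays, 2 to 4 per group, limits the precision. Members, lists and comparisons were chosen with earlier results of these data known. Named were all called members, the lowest and highest member of each complex in 6 comparisons, all paralogs, and up to 3 called genes of smallest adjusted p per list; full levels were given for up to 3 called members per comparison and direction, and for a few further members, such as sdhc, atp5l and sdhdb, chosen after their values were seen. Kinase genes that begin with rps6k were taken off the ribosomal list after its results were seen. Alternatives were array weights, renormalization, subtraction of array medians, a filter on low genes, all probe sets, a replicate block, another prior, fits to fewer groups, and leaving out each array. Within 1 region, arrays of different times with the same replicate number gave correlations of deviations of -0.10 to 0.12 over 23 pairs. Over 51 pairs with different numbers they were -0.12 to 0.12. Deviations in groups of 2 arrays mirror each other, so these pairs were not independent. They do not bear on fish shared by regions at 1 time. Correlations between regions were not taken. The labels do not say whether arrays of different regions share fish, and the fit treated them as unpaired. Figures used matplotlib 3.10.9.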

Additional observations from a re-analysis of the deposited data

Results flagged for a closer look

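The level of ndufa4b in the 4 medial arrays of day 2 was 8.49, 8.47, 8.42 and 8.87. The array at 8.87 stood apart: its gap to the nearest array made up 0.838 of the whole range, above Dixon's critical value for 4 arrays. Of 12 values tested in this group 1 passed, and chance alone passes about 1 in 20 groups. The call of ndufa4b between medial zone and parenchyma did not depend on any single array.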

How the results depend on the processing

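For the medial zone against the parenchyma over all times (57 called) the count was 47 to 61 when single arrays were left out and 54 with the replicate block, and 28 at day 2 alone and 18 at day 7 alone. Against the SVZ (44 called) it was 27 to 45, 39 with the replicate block, 17 at day 2 and 8 at day 7. For SVZ against parenchyma (14 called) it was 12 to 15, 14 with the replicate block, 24 after quantile normalization again (21 lower and 3 higher), 5 at day 2 and 6 at day 7. In unlesioned tissue, medial zone against parenchyma (17 called) gave 9 with array weights, 10 with array medians subtracted, 6 with only these groups, 22 after renormalization, 23 without the 2 arrays of lowest weight, and 6 to 11 without single arrays; medial zone against SVZ (3 called) gave 5 with a trended robust prior and 0 to 3 without single arrays; SVZ against parenchyma (8 called) gave 13 after renormalization and 5 to 7 without single arrays. For day 2 in the mean of the regions (1 called) there were 2, cox7a2b and cox5b2, with array weights, with the low genes removed, with the robust prior, without the 2 arrays of lowest weight, and 1 to 2 without single arrays. Without single arrays the parenchyma gave 1 to 2 at day 2 (sdhdb added without unlesioned replicate 2), 0 to 1 at day 7 and 0 to 1 for day 7 against day 2 (also 1, cox7a2b, without the 2 arrays of lowest weight); the day 7 mean of regions gave 0 to 1 and the difference of the day 2 effect between SVZ and parenchyma 0 to 1. The causes were not tested. The replicate block, with 1 effect per replicate number shared by all regions and times, moved no count by more than 1.5 times. It did not model fish shared by regions within 1 time, so its counts do not bear on such pairing. Pairing of regions by fish was not checked. No median over the members moved by more than the spread of 0.142, and no gene described in full changed direction in any alternative, while 19 of their calls were lost. The choices of single days and of the 2 arrays were made after seeing the data. No test of signal over background was made for any member, among them the 3 under the table median.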

Other observations

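Of the 14 members with further probe sets, 16 such probe sets were measured, of which 13 had the same sign as the one used for the medial zone against the parenchyma over all times. Those of atp5mc1 (-0.79 beside -0.51 for the one used), ndufb7 (-0.60 beside -0.40), atp5mc3b (-0.47 beside -0.45) and cox6b2 (-0.26 beside -0.29) were close to it or further from 0. That of cox5ba was -0.29 beside -0.69.

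The complex IV genes cox6a2 and cox7a1, whose mammalian homologs are isoforms of heart and skeletal muscle, had positive values after the lesion that were not called. Averaged over the regions, the log2 fold change of cox6a2 was 0.33 at day 2 (SE 0.12, adjusted p = 0.13) and 0.41 at day 7 (SE 0.12, adjusted p = 0.25), and that of cox7a1 was 0.43 at day 2 (SE 0.14, adjusted p = 0.098), on a probe set whose mean of 3.07 lay under the table median.

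The region order medial zone, SVZ, parenchyma from low to high was found in the means of 58 of 92 members (63%) and of 24.4% of all genes.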
